A study of Homo sapiens with 27 samples.

Results

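The genes described here encode RAB small GTPases. They were chosen by name: a gene counted as a member where one of the 4 antibody peak lists named a symbol made of RAB, a number and at most 1 further letter, alone and not beside another gene. This gave 40 members of the 11528 genes that those lists name alone, and of 64 RAB symbols in the RefSeq table, of which 1 is a pseudogene. The members hold 254 of the 76940 peaks of the antibody lists. A further 60 of 16672 pseudouridine peaks had their summit inside the hg38 span of a member.

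The RNA came from HepAD38 cells, which derive from a human liver carcinoma and hold an integrated hepatitis B virus genome that tetracycline switches off. The labels give a wild type genotype for all 27 libraries, no treatment beyond the modification assayed, and no tetracycline state, so all groups are the same line in the same state as far as they say. Antibodies were used against the methylated bases m1A (N1-methyladenosine), m5C (in cytidine) and m7G (in guanosine) and against acetylated cytidine (ac4C). There were 3 immunoprecipitated (IP) and 3 input libraries for each, and 3 libraries for pseudouridine (Psi) whose labels do not say IP or input. The stated question was whether such marks take part in evolution. No condition was compared, so the comparisons are of IP with input within a list, and of the lists with each other.

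RAB proteins are molecular switches. Each is loaded with GTP by an exchange factor (GEF), is then bound by effectors that tether, move or fuse a vesicle, and is turned off by a GTPase-activating protein (GAP). Prenyl tails hold them in the membrane, and GDP dissociation inhibitors (GDI) take them off again. Different members mark different membranes: RAB1 and RAB2 the route from the endoplasmic reticulum (ER) to the Golgi, RAB5 the early endosome, RAB7 the late endosome and lysosome, RAB11 the recycling endosome, and RAB3 and RAB27 secretory vesicles. In hepatocytes these routes carry secreted plasma proteins, lipoproteins and receptors. As for the marks, m7G is the base of the cap at the 5′ end of messenger RNA, and all 5 also occur inside RNAs.

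The lists gave different ratios at the starts of the RNAs, so the bases around some of the annotated starts are shown first. For 33 members RefSeq (GRCh38.p14) gave a start and its sequence that could be used here. In 14 of these a listed m7G peak covered the whole of the first 20 transcribed bases. The sequences below are those of 4 members among them with a high m7G ratio. Those of RAB8A and RAB11A, whose m1A peaks over the start were lower in the IP than in the input, are also shown. So are those of RAB6A and of RAB6C, an intronless relative on another chromosome. Each sequence holds 10 bases before the start in lower case and the first 20 transcribed bases in capitals, 5′ to 3′.
RAB21: gaggtgtgacGTAGGAGGAAGGAGACGCCA
RAB2B: gggagaagaaGAAGATCGGTAGATTGAGTG
RAB10: ccttgcgtgcGTCTCAGGCAGCGCGCACGC
RAB14: gagcgccgccATCTTGGACCAGCCCGAGGA
RAB8A: tcccgtcgggGAGAGAGTGTAATATGGCGA
RAB11A: ccagtccggcAGTTGAAGCTCGGCGCTCGG
RAB6A: aggctcgcgcACTCAGCAGGTTGGGCTGCG
RAB6C: aggctcgcgcACTCAGCAGGTTGGGCTGCG

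The start of RAB21 lies on chromosome 12 at 71754863 (plus strand), that of RAB2B on chromosome 14 at 21476959 (minus) and that of RAB10 on chromosome 2 at 26034084 (plus). RAB14 starts on chromosome 9 at 121201869 (minus), RAB8A on chromosome 19 at 16111889 (plus) and RAB11A on chromosome 15 at 65869491 (plus). Of the 14 covered starts, 7 began with A, 6 with G and 1 with C. Over 15842 protein-coding genes of the same table, 50.7% began with A, 36.3% with G and 11.3% with C. The stretch shown for RAB6A is identical to that of RAB6C, and over the first 50 transcribed bases 38 letters were the same. Reads from these copies, and from RAB6D, may be shared, so their values are uncertain. The median share of G and C in the 300-base window around the start was 65% over the 33 members, 68.3% over the 14 with a covered start and 62.7% over the protein-coding genes.

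For each peak the lists hold the pooled reads of the IP and of the input, in RPM (reads relative to library depth). None of these values has a replicate error. Pooled depth, recovered from the RPM steps, was lowest in the ac4C IP at 17135274 reads and ran from 118320068 to 364905848 elsewhere. Where members are described, many RPM ratios of IP to input are printed with a 95% exact (Clopper-Pearson) interval and others without. The intervals cover counting error only. A peak is called higher or lower where an exact binomial test of its reads, two-sided, gave a Benjamini-Hochberg adjusted p under 0.05 over its whole list. Such a call compares pooled libraries, not conditions. The files give no transcript parts, so peaks were placed by their distance to the ends of the gene span, and "near" means a midpoint within 500 bases. Of 8 hepatocyte markers 7 were listed for each of m1A, m5C and m7G, ALB and APOA1 among them. For ac4C 1 of the 8 was listed, HNF4A, while ALB and APOA1 were not. No endothelial marker was listed, and of 3 immune markers CD68 was. Of 6 fibroblast and mesenchymal markers, FN1 alone was listed for m1A, m5C and m7G, while the other 5 (COL1A1, COL1A2, COL3A1, VIM and THY1) were listed for ac4C alone. VIM had 612 RPM in the ac4C IP and 2.34 in its input over its 2 peaks.

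For m1A 34 members held 94 peaks, for m5C 33 held 75, for m7G 32 held 70 and for ac4C 10 held 15, while 24 members held the 60 Psi peaks. Of the protein-coding genes in any antibody list, 79% were listed for m1A, 75.3% for m5C, 68.8% for m7G, 42.4% for ac4C and 49.8% for Psi. Among all protein-coding genes in RefSeq the shares were 41.2%, 39.3%, 35.9%, 22.1% and 32.3%, in the same order. RAB5A, RAB7A, RAB13, RAB14 and RAB21 were in all 5 lists, and 16.6% of the protein-coding genes in any antibody list were. There were 17 members in 4 lists, 8 in 3 and 6 in 2. RAB33B was listed for m1A alone, RAB36 and RAB41 for m5C alone, and RAB9A for m7G alone.

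**Figure D1:**
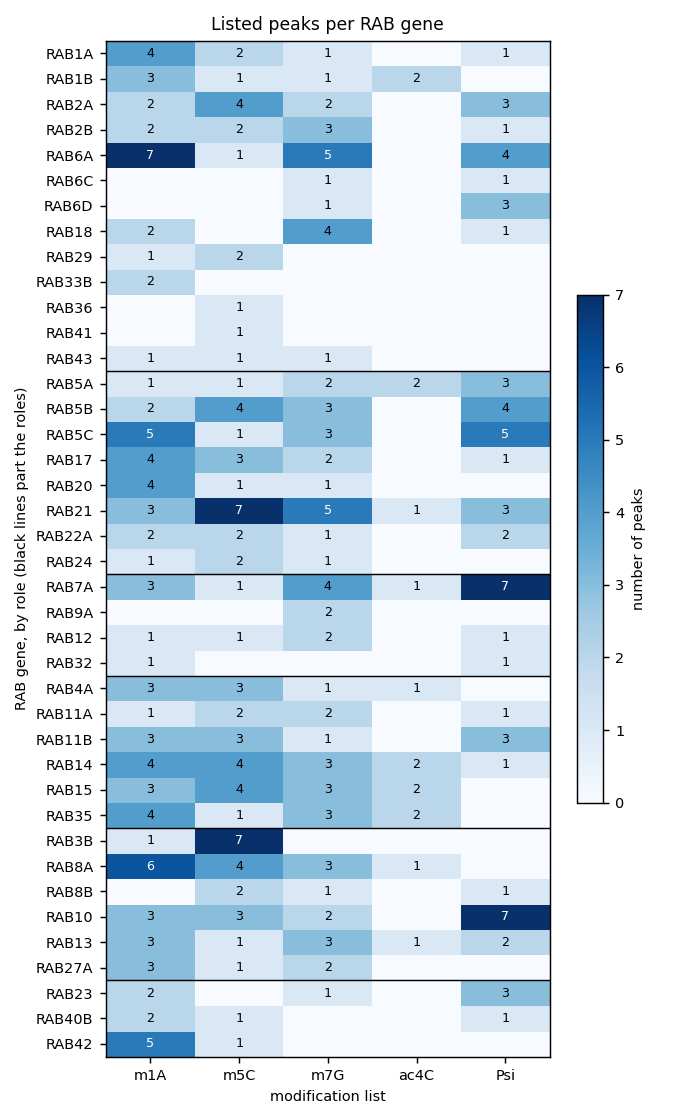
Number of listed peaks (colour and digit) of each of the 40 RAB genes, in rows grouped by role, in the 5 modification lists, in columns. RAB7A and RAB10 hold 7 Psi peaks each, RAB6A 7 m1A peaks, and RAB3B and RAB21 7 m5C peaks each, while blank cells are gene and list pairs without a peak.

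Of the 64 RAB symbols 24 were no members. RAB33A, RAB38 and RAB44 held Psi peaks alone, and RAB4B appeared in 3 peaks that name several genes. These 4 are named after their values were seen. The other 20 were in neither kind of list, among them RAB3A, RAB3C and RAB3D, which serve regulated exocytosis, and RAB25 and RAB27B. The Psi summits in RAB33A also lie in the span of AIFM1, and that in RAB38 also lies in the span of LOC107984361. The Psi list carries no strand, so the gene of these peaks is uncertain.

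Enrichment of RAB peaks in the IP ran both ways. For m1A 55 of 94 peaks were higher in the IP and 32 lower, against 60.6% and 28.3% of all m1A peaks. For m5C 31 of 75 were higher and 35 lower, against 42.5% for either direction over the list. For m7G 41 of 70 were higher and 22 lower, against 66.2% and 21.5%. For ac4C all 15 were higher, as were 100% of the list. These shares lay near those of the lists as wholes for m1A, m5C and ac4C, while for m7G lower peaks made up 31.4% of the RAB peaks. At 2-fold or more 41 m1A peaks were higher and 15 lower (44.7% and 10.8% of the list), and 24 m5C peaks were higher and 27 lower (31.5% and 28%). For m7G 23 were higher and 0 lower by the exact binomial test (37.6% and 0.0472%), and for ac4C 15 were higher (99.6%). The median ratio of RAB peaks against that of the whole list was 1.52 against 1.67 for m1A, 0.769 against 1.01 for m5C, 1.20 against 1.36 for m7G and 8.84 against 11.9 for ac4C.

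In the authors' deposited table the log2 enrichment is above 0 for all 254 RAB peaks, from 0.34 to 7.97, although the RPM ratio was below 1 at 100 of them. The sources used here do not give its formula. Scaling IP and input to the reads inside listed peaks in place of the library depth lowered the list medians by 0.25 (m1A), 0.74 (m5C), 0.43 (m7G) and 1.93 (ac4C) on the log2 scale. On that scale m1A ratios under 1.19, m5C ratios under 1.67, m7G ratios under 1.35 and ac4C ratios under 3.82 fall below 1, and such ratios are marked below as turning with the scaling. The m7G peaks then split into 25 higher and 40 lower, with 46.8% and 44.6% over the list, and the m5C peaks into 23 higher and 45 lower, with 30.3% and 57%.

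**Figure D2:**
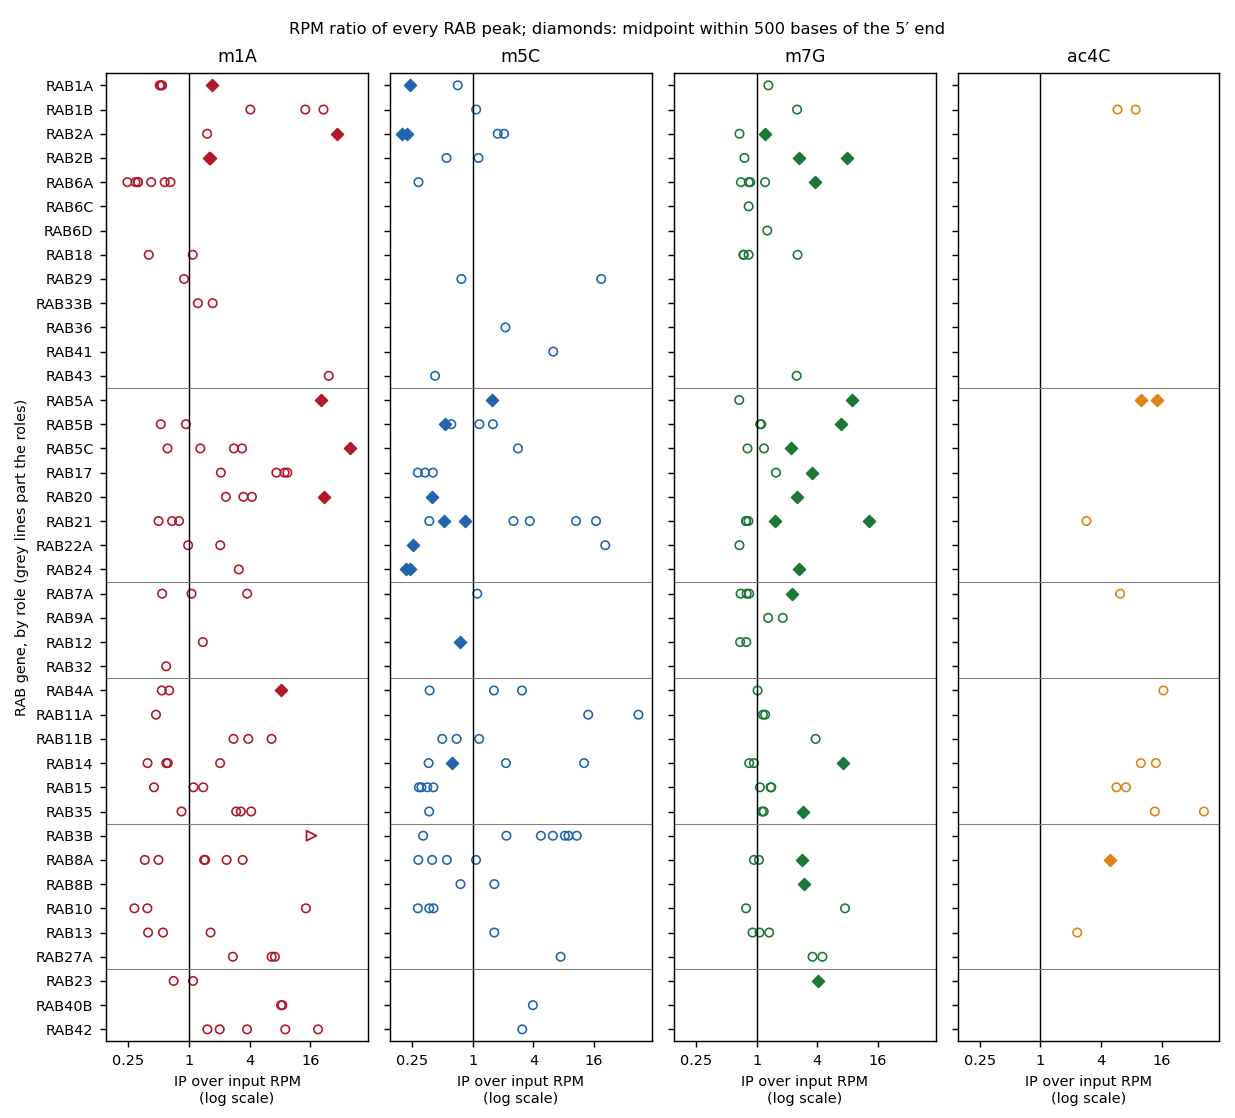
RPM ratio of IP to input (log axis) of each antibody peak of the 40 RAB genes, in rows by role, with 1 panel per list. Filled diamonds are peaks with a midpoint within 500 bases of the 5′ end, open circles the others, the vertical line marks a ratio of 1 and the arrowhead of RAB3B is a lower bound of 16.5; the m7G diamonds lie between 1.22 and 13.1, and 1 of the 13 m5C diamonds lies above 1.

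RAB peaks at the start of a gene had other ratios than those further along. All 18 m7G peaks near the 5′ end, in 16 members, were higher and 0 lower in the IP, with a median ratio of 2.92 and a range from 1.22 to 13.1. Over all protein-coding genes 98.9% of such peaks were higher and 0.394% lower by the same exact binomial test, with a median of 3.64. Away from both ends 21 of 50 RAB m7G peaks were higher and 22 lower, with a median of 0.981, where 53.6% and 30% of the peaks of protein-coding genes were. These 50 include peaks that cover the start but have their midpoint further along, such as RAB10 (7.55), RAB11B (3.85) and RAB11A (1.21, turning with the scaling). In each of the 12 members with both kinds of m7G peak, the strongest one near the 5′ end had a ratio above the median of the gene's other peaks. This was so for 98.5% of 2474 protein-coding genes, so the order is that of the list. Scaled to listed peaks, 17 of the 18 stayed higher, and RAB2A at 1.22 turned.

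The m5C list ran the other way near the 5′ end, in partly other members and at partly other bases. Of 13 RAB m5C peaks there, in 10 members, 11 were lower in the IP and 1 was higher, with a median ratio of 0.390. The shares over protein-coding genes were 68.5% lower and 15% higher, with a median of 0.486. The higher peak was that of RAB5A at 1.57, which turns with the scaling. In none of the 6 members with both kinds of m5C peak was the strongest one near the 5′ end above the median of the gene's others. Of 1269 genes 26.4% had this. Away from both ends the RAB m5C peaks were spread from 0.284 to 44.2, with 27 of 53 higher and 21 lower, where 44.2% and 41.9% of such peaks were.

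For m1A all 8 RAB peaks near the 5′ end were higher, in 7 members, with ratios from 1.59 to 39.7 and a median of 14.3. Over protein-coding genes 93% were higher, with a median of 6.26. Peaks that cover the start but have their midpoint further along the gene are not among these 8. The RAB5C peak at 39.7 is among them, although its blocks reach far along the gene. Of the 7 RAB m1A peaks that cover the whole of the first 20 bases, 5 were higher and 2 lower (RAB11A at 0.469 and RAB8A at 0.496), with a median of 3.78, where 87.1% and 11.3% of such peaks were over protein-coding genes. In 5 of 5 members with both kinds of m1A peak the strongest one near the 5′ end was above the median of the gene's others. This was so in 93.3% of 1765 genes. The pooled m1A input was low at these ends: at 242 places near a 5′ end where an m1A and an m7G peak share their coordinates, the m1A input was 0.464 times the m7G input in the median, and 0.754 times at 508 places elsewhere. The part of this in the m1A ratios was not tested. At the 3′ end 5 of 5 RAB m1A peaks were higher (66.8% over protein-coding genes), 2 of them in RAB17. Of 9 m5C peaks there 3 were higher and 3 lower (47.8% and 32.6%), and both m7G peaks, in RAB13 and RAB17, were higher (35.4%), RAB13 at 1.33 turning with the scaling. The share of RAB peaks near the 5′ end was 8.51% for m1A, 17.3% for m5C, 25.7% for m7G and 20% for ac4C, against 8.65%, 9.3%, 27.3% and 11.3% over protein-coding genes. Near the 3′ end lay 5.32%, 12%, 2.86% and 20%, against 6.15%, 10.2%, 2.93% and 5.58%.

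**Figure D3:**
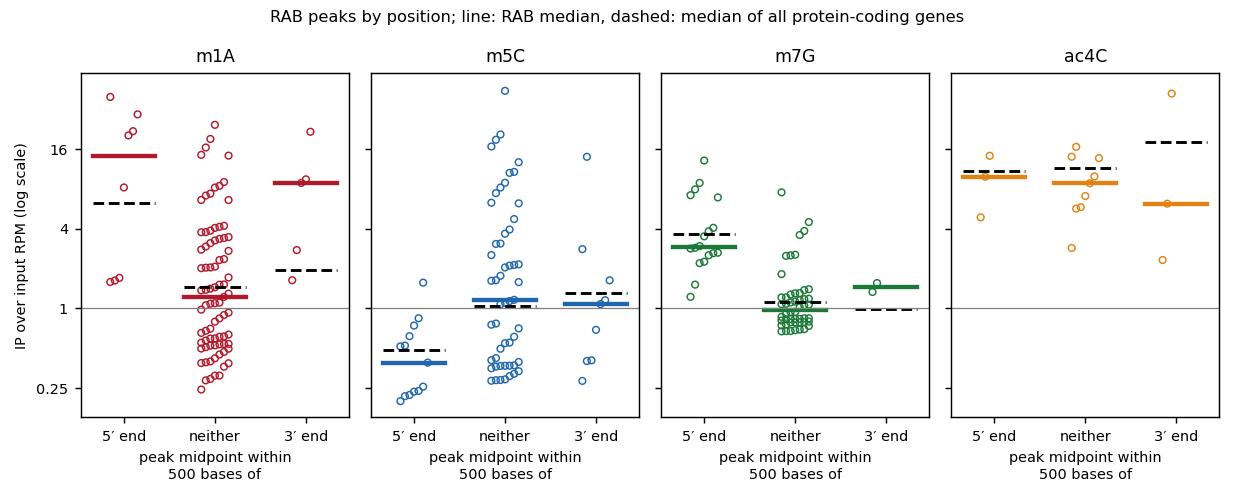
RPM ratio of IP to input (log axis) of RAB peaks by the place of their midpoint, with 1 panel per antibody list. Circles are peaks, the coloured line is the RAB median and the dashed line the median over protein-coding genes; near the 5′ end the RAB medians are 14.3 for m1A, 0.390 for m5C and 2.92 for m7G, and the RAB3B m1A peak without input reads is drawn at its lower bound.

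Among the members of the ER and Golgi, 13 of the 20 symbols of that role were listed. Of 20052 protein-coding genes in RefSeq, 10462 were in any antibody list, which is the background for this and the later role counts. Differences between roles were not tested. RAB1A, which serves transport from the ER to the Golgi, had 1 m1A peak that begins at the 5′ end, with 72.6 RPM in the IP and 42.6 in the input (ratio 1.70, 1.67 to 1.74). Its 3 other m1A peaks lay at 0.510 to 0.540, all lower. The m5C peak at its start had 1.66 RPM against 7.05 (0.235, 0.202 to 0.273), and its m7G peak 92.3 against 70.6 (1.31, 1.28 to 1.33), a ratio that turns with the scaling. So in the peaks at the start of RAB1A m1A stood above and m5C below the input. RAB1B, its close relative, had 3 m1A peaks that were all higher, the strongest near the 3′ end on chromosome 11 from 66276992 to 66277441 at 25.9 RPM against 1.20 (21.7, 19.7 to 23.9). The m5C peak at nearly the same place, with 4.39 against 4.07 RPM, was called in neither direction.

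RAB2A, which acts at the pre-Golgi and Golgi, had RPM ratios far apart at its start. Its m1A peak there had 13.7 RPM in the IP and 0.466 in the input (29.3, 25.2 to 34.4). The larger of its m5C peaks there had 5.96 against 29.9 (0.199, 0.184 to 0.215), the lowest m5C ratio of any RAB peak. The inputs of these m1A and m5C peaks, 0.466 and 29.9 RPM, lay further apart than the IP values, 13.7 and 5.96. The part of the inputs in the ratios was not tested. Further along the gene 2 m5C peaks were higher, at 1.77 and 2.04. RAB2B, its paralogue, had 11.8 RPM against 1.48 in the m7G peak over its start (7.95, 7.15 to 8.86), while its m7G peak farthest from the start had 14.4 against 19.1 (0.756, 0.725 to 0.789). Both of its m1A peaks near the start were higher, at 1.63 and 1.59.

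RAB6A, which serves traffic within the Golgi and back to the ER, was the member with m1A signal furthest below its input. All 7 of its m1A peaks were lower, from 0.244 to 0.654. The lowest, in 3 blocks on chromosome 11 from 73679654 to 73716339, had 58.2 RPM in the IP and 239 in the input (0.244, 0.240 to 0.248), and 0.0909% of all m1A peaks had a ratio at or below it. Its m7G peaks were split: the one at the 5′ end had 12.5 RPM against 3.26 (3.84, 3.56 to 4.14), 3 others lay at 0.697 to 0.864, and the largest had 209 against 172 (1.21), which turns with the scaling. RAB6C had 1 m7G peak at 1.54 RPM against 1.85 (0.833, 0.728 to 0.953) and RAB6D 1 at 18.9 against 14.9 (1.28), which turns; both are uncertain as copies of RAB6A.

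RAB18, of the ER and lipid droplets, had an m7G peak over its start with 13.3 RPM against 5.22 (2.55, 2.39 to 2.71). Of its 3 m7G peaks further along, 2 were lower, at 0.738 and 0.745. Its m1A peak, which ends at the same base, was at 1.09, which turns with the scaling, and a later one at 0.398. RAB43, a Golgi member, had 4.76 RPM against 0.195 in its m1A peak (24.4, 19.2 to 31.5), 0.473 against 1.12 for m5C (0.421, 0.310 to 0.563) and 1.22 against 0.490 for m7G (2.50, 2.03 to 3.09). These peaks lie between 129121380 and 129121679 on chromosome 3. RAB43 overlaps a read-through transcript from its neighbour, and reads may be shared, so its level is uncertain. RAB29, which acts at the Golgi and lysosome, had an m5C peak with 2.50 RPM against 0.133 (18.8, 13.1 to 28.1), while its m1A peak and its other m5C peak were called in neither direction. RAB33B, RAB36 and RAB41 were weakly covered. Their IP values ran from 0.287 RPM in the m5C peak of RAB41 (6.30, 3.12 to 13.8) to 0.507 RPM in that of RAB36 (2.11, 1.44 to 3.08).

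Of the 9 symbols of the early endosome 8 were listed. RAB5A, which governs fusion of early endosomes, had peaks of all 4 antibodies near its 5′ end, of which the m7G peak covered the first 20 bases. Its m1A peak had 39.0 RPM in the IP and 1.92 in the input (20.3, 18.8 to 21.98), its m7G peak 44.5 against 5 (8.90, 8.40 to 9.43) and its m5C peak 21.2 against 13.5 (1.57, 1.49 to 1.65), the last turning with the scaling. Its 2 ac4C peaks had 7.94 against 0.801 and 2.57 against 0.180 RPM. The m7G peak further along the gene was lower, with 8.62 against 12.8 RPM (0.671, 0.636 to 0.708).

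RAB5C, a paralogue with the same role, held the highest measured m1A ratio of the family. The peak runs in 2 blocks of 98 bases together on chromosome 17 from 42137878 to 42154989 and had 16.1 RPM in the IP and 0.406 in the input (39.7, 33.7 to 47.1). An m7G peak of the same coordinates had 12.6 RPM against 5.72 (2.201, 2.07 to 2.34). The m7G input thus had 14.1 times the RPM of the m1A input at those bases, while the IP values differed by 1.28 times. RAB5B, the third paralogue, had an m7G peak near its start at 1.84 against 0.266 RPM (6.91, 5.36 to 9.03) and 2 further m7G peaks called in neither direction.

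RAB21, which sorts integrins at the early endosome, had the highest m7G ratio of the family, from 0.608 RPM in the IP against 0.0463 in the input (13.1, 7.31 to 26.0), which rests on 12 input reads. Its 3 m7G peaks with a midpoint further along the gene lay at 0.784 to 0.828. Its m5C peaks were low near the start and high towards the end of the gene: 0.517 in the largest peak of the start region, 0.369 in the middle, and 2.53, 3.67, 16.8 and 10.6 in the last 4. All 3 of its m1A peaks were lower, at 0.498 to 0.795.

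RAB22A, of early and recycling endosomes, gave the largest m5C IP signal in a single peak after RAB7A. Its peak on chromosome 20 from 58366257 to 58366706, in the last part of the gene, had 323.8 RPM in the IP and 15.7 in the input (20.7, 19.99 to 21.4), from 38317 IP reads. At the start of the same gene the m5C peak had 4.68 against 18.3 RPM (0.257, 0.234 to 0.280). The m1A peak over the same late stretch was higher, at 2.04, and the m7G peak of RAB22A was lower, at 0.675.

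RAB17, RAB20 and RAB24 showed the same opposition of m1A and m5C. RAB17, of polarised epithelia, had 4 m1A peaks, all higher at 2.07 to 9.46, and 3 m5C peaks, all lower at 0.283 to 0.401. RAB20 had 4 m1A peaks, all higher, up to 21.9 at its 5′ end, and its m5C peak there lay at 0.390. RAB24, linked to autophagy, had 1 m1A peak at 3.12 and 2 m5C peaks at 0.217 and 0.238. In each of the 3 the m7G peak at the 5′ end was higher, at 3.51, 2.53 and 2.64.

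Of the 7 symbols of the late endosome and lysosome 4 were listed. RAB7A, which drives the maturation of late endosomes and their fusion with lysosomes, had the highest summed m1A IP signal of the family, 293 RPM over 3 peaks of 1125 bases together. Its m1A peak over the start had 158 RPM in the IP and 41.7 in the input (3.78, 3.71 to 3.85), the next 132 against 124 (1.06), which turns with the scaling, and the last 3.96 against 7.34 (0.540, 0.503 to 0.579). The m7G peaks followed the same order, with 2.26 over the start and 0.692 to 0.843 in the other 3. The m5C peak had 323.9 RPM against 293 (1.11, 1.09 to 1.12) and turns with the scaling. Both m1A and m7G thus stood above the input at the start of RAB7A and below it in the last shared peak.

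RAB12, which acts on lysosomal degradation of membrane receptors, had both of its m7G peaks lower, at 0.685 and 0.789, neither near its start, while its m1A peak was higher at 1.37. RAB32, of lysosome-related organelles, had a single antibody peak, for m1A, with 3.18 against 5.38 RPM (0.592, 0.547 to 0.641). RAB9A, which returns cargo from late endosomes to the Golgi, had 2 m7G peaks at 1.82 (1.61 to 2.06) and 1.30, the second turning with the scaling.

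Of the 8 symbols of the recycling endosome 6 were listed. RAB11A, the best known recycling member, opposed its paralogue RAB11B in m1A. The peak over the start of RAB11A, of 425 bases in 3 blocks, had 60.7 RPM in the IP against 129 (0.469, 0.461 to 0.477). That over the start of RAB11B, of 200 bases in 2 blocks, had 23.2 against 3.51 (6.60, 6.21 to 7.01). Their midpoints lie 7918 and 9505 bases from the 5′ end, so these ratios are not those of the starts alone. The m7G peaks over both starts were higher, at 1.21 for RAB11A, which turns with the scaling, and 3.85 for RAB11B. In m5C, RAB11A had 2 peaks, 982 and 95 bases from the end of the gene: 0.549 RPM against 0.0124 (44.2, 14.5 to 220), from 3 input reads, and 5.11 against 0.365 (14.01, 11.2 to 17.7). Of the 3 m5C peaks of RAB11B 1 was lower, at 0.496, and 2 were called in neither direction. The first m1A peak and the m7G peak of RAB11B overlap a listed peak on the opposite strand and are uncertain.

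RAB14, between the Golgi and endosomes, had 2.10 RPM against 0.293 in the m7G peak at its start (7.18, 5.64 to 9.25), and its 2 other m7G peaks lay at 0.843 and 0.939. Its m5C peaks ran from 0.363 to 12.7. The highest of these, on chromosome 9 from 121181183 to 121181332, has the coordinates of an m1A peak at 2.03 (1.72 to 2.41), with 6.87 RPM in the m5C IP and 1.29 in the m1A IP. RAB4A, of fast recycling, had an m1A peak at its start at 8.22 (6.14 to 11.2) and 2 later ones at 0.634 and 0.535, and its m7G peak was called in neither direction. RAB35, of recycling to the cell surface, had 3 of 4 m1A peaks higher, at 2.94 to 4.14, and 3 m7G peaks higher, the one at its start at 2.87 and the others at 1.13 and 1.18, which turn with the scaling. RAB15 had 4 m5C peaks, all lower at 0.291 to 0.405.

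Of the 12 symbols of exocytosis 6 were listed. RAB8A, which brings vesicles to the plasma membrane, had an m1A peak over its start that was lower, with 47.5 RPM against 95.8 (0.496, 0.487 to 0.506), and 4 of its 5 later m1A peaks were higher, at 1.41 to 3.41. Its m7G peak over the same start had 40.8 against 14.4 (2.84, 2.73 to 2.95). Of its 4 m5C peaks 3 were lower, at 0.287 to 0.552. RAB10, in the same pathway, had its m7G peak over the start at 22.3 RPM against 2.96 (7.55, 6.997 to 8.15), and a later one of 5 blocks at 144 against 184 (0.784, 0.774 to 0.795). Its first m1A peak, 1.35 against 0.0932 RPM, was higher at 14.5 (10.2 to 21.2), and its 2 later ones lay at 0.385 and 0.286. All 3 m5C peaks of RAB10 were lower, at 0.284 to 0.406. The RefSeq span of RAB10 starts upstream of the start printed above, so its first peaks are not among those counted near the 5′ end, and the same holds for RAB43.

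RAB3B, of regulated secretion, stood out by m5C. It had 7 m5C peaks, of which 6 were higher, at 2.16 to 10.8, and 1 was lower, at 0.321. The largest, on chromosome 1 from 51918856 to 51919330, had 108 RPM in the IP and 17.4 in the input (6.23, 6.02 to 6.46). The m1A peak of RAB3B had 38 IP reads and no input read, so it was at least 16.5-fold higher, with the input at a floor of 3 pooled reads. RAB3B was not listed for m7G. RAB27A, of secretory granules and exosomes, was higher in all 6 of its peaks: 2.72 to 7.14 for m1A, 7.44 for m5C and 3.59 and 4.50 for m7G. RAB13, of epithelial junctions, had m1A and m5C peaks of identical coordinates in 4 blocks near its 3′ end, on chromosome 1 from 153981705 to 153982726. The m1A ratio was 1.64 (1.61 to 1.66) and the m5C ratio 1.63 (1.605 to 1.66), the second turning with the scaling. RAB8B had an m7G peak at its start at 2.96 (2.63 to 3.33), and no m1A peak.

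RAB23, a regulator of Hedgehog signalling, RAB40B, a ubiquitin ligase adaptor, and RAB42 made up the rest. The m7G peak of RAB23 at its 5′ end had 1.66 RPM against 0.409 (4.07, 3.29 to 5.08). RAB40B had 2 m1A peaks at 8.21 and 8.45 and an m5C peak at 3.95 (2.54 to 6.25). RAB42 had 5 m1A peaks, higher at 1.52 to 19.1, and an m5C peak at 3.10 (2.402 to 4.004). None of the 6 peaks of RAB42 lies near either end of its span.

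The ac4C list named 10 members. The largest RAB peak was that of RAB8A, with 67.2 RPM in the IP and 13.8 in the input (4.89, 4.58 to 5.21), on chromosome 19 from 16111889 to 16121801, the same coordinates as its m7G peak. RAB13 followed with 37.5 against 16.1 RPM (2.32, 2.14 to 2.52), which turns with the scaling, as does RAB21 with 5.95 against 2.08 (2.87, 2.305 to 3.53). RAB15 had 15.2 against 2.68 and 6.71 against 0.948 RPM (5.68 and 7.08), and RAB1B 19.8 against 3.39 over its start (5.83, 5.15 to 6.59). The highest ratio was that of RAB35 near its 3′ end, with 1.52 against 0.0360 RPM (42.1, 20.5 to 91.7), from 26 IP and 12 input reads. RAB4A stood at 16.7, RAB14 at 14.03 and 9.96, and RAB7A at 6.20. As given above, 5 mesenchymal markers had ac4C peaks with little or no input, and their part in the RAB ratios was not tested; no RAB ac4C peak was without input reads, the lowest count being 12.

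Psi peaks are folds over local background, without a control, called by the authors from 3 libraries together; the folds are theirs. The 60 RAB peaks were 20 to 130 bases long, with pileups of 2 to 9 tags, and 16 members had none. Their fold ranged from 2.87 to 8.49 with a median of 4.88, where the list had a median of 3.95. RAB14 was highest at 8.49, followed by RAB7A (7.53), RAB12 (7.43), RAB5B (7.19) and RAB18 (6.85). RAB10 and RAB7A had 7 peaks each and RAB5C 5. Near the 5′ end lay 17 of the 60, in 14 members, and near the 3′ end 7. The same shares over all Psi peaks were not computed, so these counts have no background beside them. At the summits of 9 peaks the span of another gene was also present, such as BAG2 and PRIM2 at RAB23, and the list carries no strand for these. In all 35 of the 60 overlapped an antibody peak: 25 an m1A, 25 an m7G, 19 an m5C and 2 an ac4C peak. Within genes listed for both marks these were 45.5%, 43.1%, 37.3% and 12.5% of the RAB Psi peaks, where all genes had 37.2%, 31.5%, 27.2% and 8.69%.

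Within genes listed for both marks, peaks were compared by overlap of at least 1 base. Of 65 RAB m7G peaks 45 (69.2%) overlapped an m1A peak of the same gene, and of 82 m1A peaks 40 (48.8%) overlapped an m7G peak, where all genes had 69.8% and 41%. Of 87 m1A peaks 28 (32.2%) overlapped an m5C peak and of 71 m5C peaks 31 (43.7%) an m1A peak, where all genes had 43.6% and 58.8%. Of 61 m7G peaks 25 (41%) overlapped an m5C peak and of 62 m5C peaks 25 (40.3%) an m7G peak, where all genes had 53.7% and 42.4%. Of 52 m7G peaks 20 (38.5%) overlapped a Psi peak, with 23.9% over all genes. Of 57 m1A peaks 21 (36.8%) overlapped a Psi peak, with 16.6% over all genes. These shares come from peaks of few genes that share sequence coverage, and none of the differences was tested.

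In 7 cases a pair of lists gave a RAB peak at identical coordinates, which puts the pooled inputs side by side. The inputs differed least in RAB8A, by 1.05 times between m7G and ac4C, and in RAB14, by 1.18 times between m1A and m5C. They differed by 1.34 times in RAB6A, 1.48 in RAB13, 2.45 in RAB7A, 2.47 in RAB27A and 14.1 in RAB5C. In RAB6A the m1A ratio was 0.293 and the m7G ratio 0.834 at the same 250 bases, in RAB7A 0.540 and 0.795, and in RAB27A 7.14 and 4.50. So at RAB6A both antibodies were below their inputs, m1A further than m7G.

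The partners that load, escort and read RAB proteins were listed as follows, where 41.2% of protein-coding genes in RefSeq were listed for m1A, 39.3% for m5C and 35.9% for m7G. Of 6 GDI and escort genes 4 were listed for m1A, 4 for m5C and 5 for m7G. GDI2, which extracts RAB proteins from membranes, had 321 RPM in the m7G IP and 340 in its input over 4 peaks of 875 bases together. CHML, an escort protein for prenylation, had 143 RPM in the m5C IP against 4.72 in the input over 2 peaks of 500 bases, and CHM, its relative, 11.7 against 2.84 over 200 bases. Of 4 prenylation genes 3 were listed for m1A, 2 for m5C and 2 for m7G, and PDE6D, a carrier of prenylated proteins, had 10.7 against 0.915 RPM for m1A over 275 bases.

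Of 43 GEF genes 30 were listed for m1A, 30 for m5C and 23 for m7G, with 72 of 105 m1A peaks higher and 18 lower (60.6% and 28.3% over the list). RGP1, part of the exchange factor of RAB6, had 98.3 RPM in the m1A IP against 7.79 in the input over 10 peaks of 2025 bases, and 14.1 against 29.0 for m5C over 6 peaks of 900 bases. CCZ1 and CCZ1B, near-identical copies that activate RAB7, had 89.0 and 90.7 RPM in the m1A IP and are uncertain, since reads of one may be counted in the other. Of 35 GAP genes 27, 23 and 22 were listed for m1A, m5C and m7G, with 64 of 103 m1A peaks higher and 25 lower, again beside 60.6% and 28.3% over the list. EVI5 had 303 against 19.5 RPM for m5C over 5 peaks of 1100 bases, TBC1D10B 42.9 against 208 over 450 bases, and RAB3GAP1, part of the RAB3 GAP, 83.0 against 102 over 575 bases.

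Of 52 effector genes 35, 37 and 31 were listed. For m5C 69 of 130 effector peaks were higher and 47 lower, where 42.5% of the whole list were in either direction, with a median ratio of 1.44, which turns with the scaling. GCC2, a Golgi tether bound by RAB proteins, had 1756 RPM in the m5C IP and 154 in the input over 8 peaks of 3075 bases. EEA1, the early endosome tether bound by RAB5, had 1185 against 218 RPM over 6 peaks of 2775 bases. EHBP1, bound by RAB8 and RAB10, had 187 RPM in the m5C IP against 311 in the input over 1325 bases. The difference between effectors and RAB genes was not tested.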

How the data were processed

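Per the labels' protocols, total RNA of HepAD38 went through a stranded kit that tags molecules. The authors deposited 1 list per antibody (m1A, m5C, m7G, ac4C) with pooled RPM (reads scaled to library depth) of IP and input per peak, a log2 enrichment, a p-value and its adjusted value, per the file headers. The submitters' processing notes name hg38 with HISAT2, StringTie and DESeq, and no source used here names the peak caller of these lists. For Psi, MACS 2.2.6 was run on the 3 libraries together without a control, at q 0.05 and 1 tag per position, per the file headers, and the deposited pileup signal, fold over background and −log10 p and q are the authors'. The Psi caller read 10921552 tags and kept 2218798.

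RPM steps gave whole reads for 100% of values (within 0.1 read) and so the pooled depths. IP and input reads were compared by a two-sided exact binomial test, with Benjamini-Hochberg adjustment over each list, checked on simulated data. Since libraries were pooled, the calls measure counting error, and whether libraries were separate cultures is not stated. Positions used RefSeq gene spans (GRCh38.p14). The sequence of 1 further start is not reported here. Python 3.11.15, numpy 2.4.6, pandas 2.3.3, scipy 1.17.1 and matplotlib 3.10.9 were used. Named members are those with extreme sums, ratios or Psi folds, in all 5 lists or 1 alone, or textbook members of a role. RAB6D, RAB8B, RAB17, RAB20, RAB23, RAB40B and RAB42 were added after their values were seen. Members and lists were chosen with earlier results of these data known. Alternatives varied the call threshold, the peaks and genes counted, the depth, the summary, the window and the overlap.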

Additional observations from a re-analysis of the deposited data

How the results depend on the processing

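Of the counts of calls and of listed genes, the medians and the 5′ shares over all RAB peaks of a list, those not given here moved by less than 1.5 times or less than their interval under the alternatives run. Keeping peaks at or below the list median of the authors' adjusted p left 31 higher and 16 lower m1A peaks, 19 lower m5C peaks, 22 higher and 6 lower m7G peaks in 20 genes, and 7 higher ac4C peaks, from fewer peaks by construction. Asking for a 2-fold ratio beside the exact binomial call left 15 lower m1A, 23 higher m7G and 0 lower m7G peaks, where 22 m7G peaks were lower at an adjusted p under 0.05. Genes with a higher m5C peak numbered 19. With 1 peak per gene the median ratio was 1.15 for m5C and 2.54 for m7G, and from sums per gene 1.08 and 1.29. The share near the 5′ end was 24.5% for m1A with any base within 500 bases, and 9.33% for m5C within 200 bases.

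Depth from listed peaks gave medians of 0.461 (m5C), 0.890 (m7G) and 2.31 (ac4C); this use of it on medians and single ratios, like the any-base window, was chosen after seeing the data. It gave 25 higher and 40 lower m7G peaks and 2 lower ac4C peaks. Ratios at the peak of highest authors' enrichment then turned to 0.914 for RAB18 m1A, to 0.978 (RAB13), 0.939 (RAB5A) and 0.663 (RAB7A) for m5C, to 0.901 (RAB11A), 0.990 (RAB13), 0.971 (RAB1A) and 0.910 (RAB2A) for m7G, and to 0.608 (RAB13) and 0.750 (RAB21) for ac4C. Away from the 5′ end 8 m7G peaks were then higher, where 23 were. Which depth is right was not tested. No paired analysis was possible because the columns pool the libraries, and for the same reason no library could be left out. The ac4C IP was the shallowest, and RAB ac4C intervals are wide.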
